A study of Homo sapiens with 11 samples.

Results

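The regions described here are the SKP2 ChIP-Seq peaks of HCT116 cells with intact RepID (WT) that had no SKP2 peak close by in HCT116 cells without RepID (RepID KO). A WT peak on chromosomes 1 to 22 was taken as WT-only when its centre lay more than 10 kb from every SKP2 peak of RepID KO cells. Of the 12221 SKP2 peaks of WT cells, 11929 lay on these chromosomes, and 8817 of those (73.9%) were WT-only. The members were thus chosen by the positions of peaks called in these 2 SKP2 libraries. Another 1635 WT peaks overlapped a RepID KO peak by 1 bp or more and are called shared, and 1477 lay closer than the limit without touching one and are called near. The mirrored rule left 10360 of 13518 RepID KO peaks as KO-only. The 8 deposited lists of the study held 407030 regions in all.

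HCT116 is a human colon carcinoma line and U2OS a human osteosarcoma line. RepID (the product of PHIP, also called DCAF14) had been disrupted in HCT116 by CRISPR-Cas9 at the eighth exon, and the nascent strand sample of these cells is described as a clone. The ChIP-Seq cultures were unsynchronized and untreated, and all cells were grown in DMEM with serum. The WT-only peaks were compared with 6 lists that did not enter the rule, namely CDT2 peaks, CUL4A islands, H3K9me3 peaks, H3K4me3 peaks and replication origins from U2OS cells, and replication origins from HCT116 RepID KO cells. Origins were regions enriched in short nascent DNA strands. For CDT2 the deposited design names a U2OS line that stably overexpresses full-length FLAG-RepID, whereas the paper speaks of WT cells. Since 5 of the 6 lists come from U2OS, an SKP2 peak of HCT116 that meets none of their regions may lack the feature or differ between the cell lines, and these cannot be told apart.

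Each condition had 1 library, so a peak found in one list and not in the other has no replicate check, and peaks of 1 library are not replicates of a condition. No p-value was computed. Shares carry 95% Wilson intervals and differences between shares carry 95% Newcombe intervals, which cover counting error only and treat neighbouring peaks as independent. The lists give no read totals, so the depth is unknown, and loss of a peak in RepID KO cells cannot be told apart from a signal that stayed under the calling threshold.

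SKP2 is the F-box protein through which the SCF ubiquitin ligase, assembled on the scaffold CUL1, recognises substrates such as the CDK inhibitor p27 and the licensing factor CDT1. CUL4A is the scaffold of another ligase, CRL4, for which CDT2 and RepID are substrate receptors, and CRL4 with CDT2 also directs CDT1 to degradation so that origins are not licensed again in S phase. H3K4me3 marks active promoters and is common in early-replicating chromatin, whereas H3K9me3 marks heterochromatin and is common in late-replicating chromatin.

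Most WT-only peaks were narrow and had low scores, but the group also held some of the highest-scoring SKP2 peaks of WT cells. The score is the value given by the peak caller and serves only to rank peaks within a list. It ran from 194 to 5724 with a median of 345 in WT-only peaks, from 198 to 5622 with a median of 421 in near peaks and from 209 to 6079 with a median of 1215 in shared peaks. The 3 ranges overlapped almost entirely. A score at or above the shared median was found in 707 WT-only peaks (8.02%), and a score of 4000 or more in 22 WT-only and 34 shared peaks. Scores, widths and distances come from the lists that chose the members and are given as a description, without a test.

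WT peaks were then ranked by score and divided into 5 bands of nearly equal size. WT-only peaks made up 88.3% of the lowest band (scores 194 to 268) and 45.4% of the highest (895 to 6079). Shared peaks made up 1.80% of the lowest band and 42.0% of the highest. The RepID KO list had a similar make-up, with KO-only peaks forming 92.0% of its lowest band and 44.1% of its highest. The highest WT band thus held 1083 WT-only peaks beside 1001 shared ones.

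**Figure D1:**
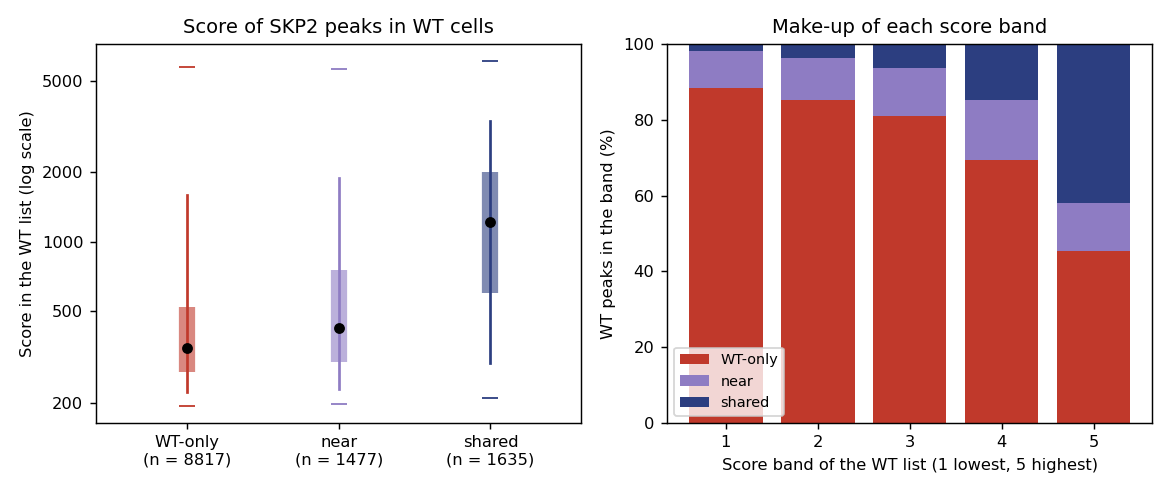
Left, score in the WT list (log axis) of WT-only, near and shared SKP2 peaks, with the median as a point, the middle 50% as a thick bar, the 5th to 95th percentile as a line and the extremes as dashes. Right, percentage of WT-only, near and shared peaks in each of 5 score bands, in which WT-only peaks go from 88.3% in the lowest band to 45.4% in the highest.

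The median width was 345 bp for WT-only peaks, 493 bp for shared peaks and 354 bp for KO-only peaks. Widths from 200 to 300 bp accounted for 37.1% of WT-only peaks, and widths of 1000 bp or more for 3.87%. Width did not follow the score, since the median was 435 bp in the lowest band, 310 bp in the middle band and 397 bp in the highest. The widest WT-only peak, of 3444 bp (chr19:42737771-42741214, build hg19, as for all coordinates here), had a score of only 383.

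The distance from the centre to the nearest RepID KO peak had a median of 65403 bp and quartiles of 29652 and 147730 bp. A RepID KO peak lay within 50 kb of 41.4% of WT-only peaks, against 28.3% of genome tiles that met the same limit of 10 kb. The tiles were 345 bp wide, as the median WT-only peak, and were laid over all 100 kb windows that held a region of any list. Within 500 kb the shares were 95.5% of WT-only peaks and 90.3% of tiles. Among WT-only peaks the share within 50 kb was 33.4% in the lowest score band and 59.1% in the highest, so high-scoring WT-only peaks lay closer to RepID KO peaks than low-scoring ones.

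At the limit itself, the 3 members just outside lay 10007, 10016 and 10024 bp from a RepID KO peak and had scores of 2069, 225 and 1366. The 3 WT peaks just inside lay at 9996, 9976 and 9974 bp and had scores of 429, 267 and 1666. The farthest member was chr7:83131418-83131711, which lay 3994231 bp from any RepID KO peak, had a score of 532 and met a CDT2 peak and a U2OS origin.

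CDT2, the CRL4 receptor, was found at 1562 WT-only peaks, or 17.7% (16.9 to 18.5%). The background was 21.3% of all WT peaks and 1.03% of genome tiles. Shared peaks met CDT2 in 40.0% of cases and KO-only peaks in 13.1%. WT-only peaks therefore stood 22.3 percentage points below shared peaks (interval of the difference -24.8 to -19.8) and 4.64 points above KO-only peaks (3.61 to 5.67).

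CUL4A islands were met by 2818 WT-only peaks, or 32.0% (31.0 to 32.9%), beside 36.2% of all WT peaks and 6.62% of tiles. The difference from shared peaks (53.0%) was -21.1 points (-23.7 to -18.5). The difference from KO-only peaks (30.2%) was 1.75 points (0.435 to 3.06), but it changed direction with the score, from 3.41 points (1.53 to 5.32) in the lowest of 5 score bands to -5.63 points (-9.65 to -1.59) in the highest. A CDT2 peak, a CUL4A island or both were present at 37.5% of WT-only peaks, 42.5% of all WT peaks, 33.9% of KO-only peaks and 7.03% of tiles.

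The heterochromatin mark H3K9me3 was present at 1579 WT-only peaks, or 17.9% (17.1 to 18.7%), beside 20.3% of all WT peaks and 1.72% of tiles. The promoter mark H3K4me3 was present at 731, or 8.29% (7.73 to 8.89%), beside 9.01% of all WT peaks and 2.41% of tiles. Relative to tiles the share was 10.4 times as high for H3K9me3 and 3.45 times as high for H3K4me3. WT-only peaks stood below shared peaks by 15.3 points for H3K9me3 (difference -15.3, -17.8 to -12.9) and by less for H3K4me3 (difference -3.33, -5.07 to -1.75). Against KO-only peaks the differences were 1.11 points for H3K9me3 (0.0389 to 2.19) and 2.61 points for H3K4me3 (1.88 to 3.34).

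U2OS origins were met by 4611 WT-only peaks, or 52.3% (51.25 to 53.3%), beside 54.8% of all WT peaks and 17.3% of tiles. Origins of RepID KO cells were met by 3715, or 42.1% (41.1 to 43.2%), beside 49.4% of all WT peaks and 11.8% of tiles. The widest gap between WT-only and shared peaks was for these RepID KO origins, which 78.2% of shared peaks met, a difference of -36.0 points (-38.2 to -33.7). For U2OS origins the difference was -8.93 points (-11.5 to -6.32). Compared with KO-only peaks, WT-only peaks met U2OS origins less often (-2.58 points, -3.99 to -1.16) and RepID KO origins more often (3.66 points, 2.27 to 5.05).

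**Figure D2:**
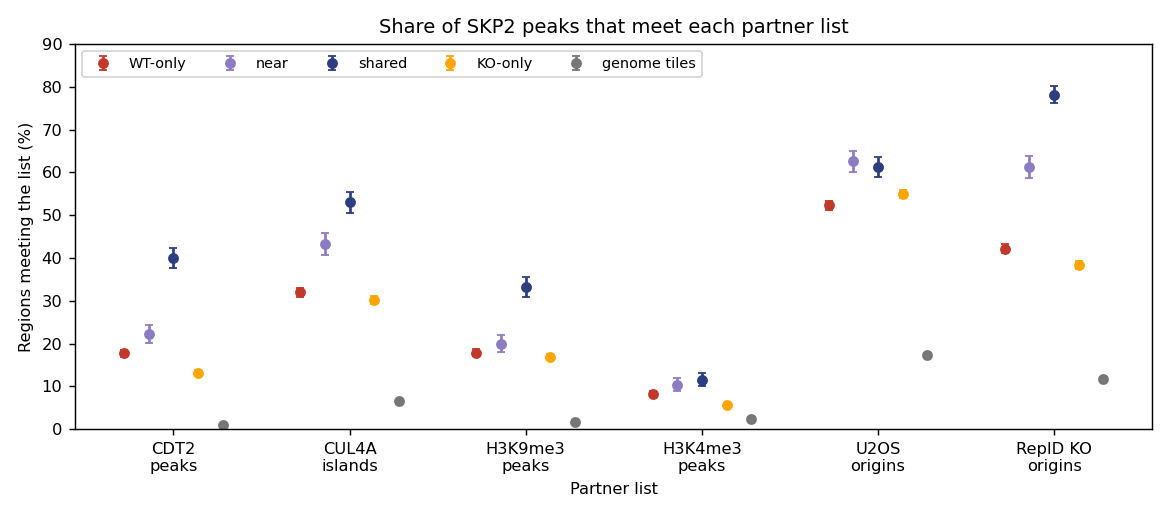
Percentage of WT-only, near, shared and KO-only SKP2 peaks and of genome tiles that share at least 1 bp with a region of each of the 6 lists, with 95% Wilson intervals. WT-only peaks lie below shared peaks for every list and above genome tiles for every list.

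Because shared peaks had higher scores, the comparison was repeated within each score band. The share of WT-only peaks with CDT2 was 2.89% in the lowest band and 54.2% in the highest, and that of shared peaks was 2.33% and 51.1%. In all 5 bands the interval of the difference between WT-only and shared peaks included 0, and in the highest band the difference was 3.05 points (-1.24 to 7.33). The highest band was also divided by score into 4 parts (last paragraph). WT-only peaks stood above shared peaks by 12.0 points (3.15 to 20.5) in part 2 and 11.1 points (2.58 to 19.4) in part 3. In the lowest-scoring and highest-scoring parts the differences were -4.81 and 6.52 points, with intervals that included 0. When shared peaks were weighted to the score bands of WT-only peaks, 18.1% met CDT2, close to the 17.7% of WT-only peaks. The intervals that included 0 do not show that the groups are alike, since in the lowest band only 43 peaks were shared.

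KO-only peaks of the highest band of their own list met CDT2 in 37.3% of cases, 16.9 points below WT-only peaks (interval of the difference 12.8 to 20.9). The difference in CDT2 between WT-only and KO-only peaks was 0.201 points in the lowest band (-0.753 to 1.19). It was thus seen among high-scoring peaks, with intervals above 0 in the upper 3 bands. The bands of the WT and RepID KO lists cover different score ranges, as the 2 libraries were called separately.

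For RepID KO origins the direction was the same at every score band. WT-only peaks met them less often than shared peaks in all 5 bands, with 23.7 against 39.5% in the lowest band and 77.5 against 86.9% in the highest. The differences ran from -18.5 to -9.44 points and every interval lay below 0. When the highest band was divided further by score (last paragraph), the difference stayed negative in each part, but most intervals included 0. At the score mix of WT-only peaks, 58.65% of shared peaks met a RepID KO origin, against 42.1% of WT-only peaks. The rule selects on SKP2 peaks of RepID KO cells, and these origins were measured in RepID KO cells as well.

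U2OS origins changed direction with the score. In the highest band 69.3% of WT-only peaks met a U2OS origin against 57.8% of shared peaks, a difference of 11.4 points (7.28 to 15.5), although WT-only peaks stood lower over all bands. KO-only peaks of their highest band reached 83.6%, which was 14.4 points above WT-only peaks (WT-only minus KO-only -14.4, -17.8 to -10.9). For H3K9me3 the interval of the difference between WT-only and shared peaks included 0 in all 5 bands, and in the highest band the shares were 38.0 and 39.7%. For CUL4A the difference was negative in all 5 bands, from -18.9 points (-33.9 to -6.73) in the lowest to -3.02 points (-7.25 to 1.22) in the highest, and the lowest band was the one whose interval lay below 0. At the score mix of WT-only peaks, 40.8% of shared peaks met CUL4A, against 32.0% of WT-only peaks. The corresponding values were 21.3 against 17.9% for H3K9me3, 11.3 against 8.29% for H3K4me3 and 58.2 against 52.3% for U2OS origins. Such weighted values, here and for the other lists, carry no interval. They rest in part on bands 1 and 2, where only 43 and 86 peaks were shared. For H3K4me3 the interval of the difference lay below 0 in bands 2 and 3 (-8.63 and -5.16 points) and just above 0 in the highest (2.96 points, 0.011 to 5.89).

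**Figure D3:**
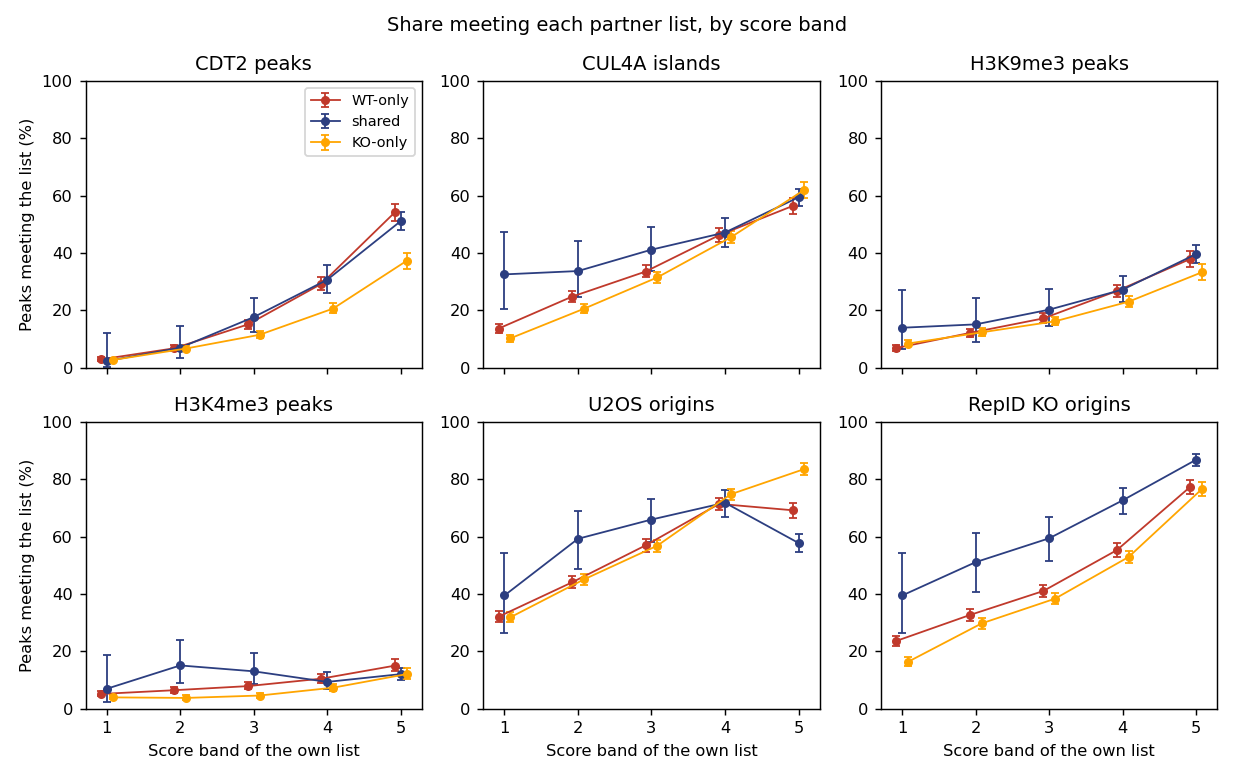
Percentage of WT-only, shared and KO-only SKP2 peaks that meet each of the 6 lists, by score band of their own list (1 lowest, 5 highest), with 95% Wilson intervals. For CDT2 the WT-only points run from 2.89% to 54.2%, with the shared points near them at this width of band. For RepID KO origins the WT-only points lie below the shared points in all 5 bands.

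WT-only peaks that met CDT2 also met the other lists more often than those that did not. Of the WT-only peaks with CDT2, 49.6% also met H3K9me3, against 11.1% of those without CDT2, a difference of 38.5 points (35.9 to 41.1). H3K9me3 was also met by 361 of the 654 shared peaks and 701 of the 1355 KO-only peaks with CDT2, so the pairing was present in the other SKP2 peaks as well. Of the 78665 genome tiles that met CDT2, 26061 also met H3K9me3, against 1.72% of all tiles. The pairing of these 2 U2OS lists was thus also seen over the genome as a whole. Among WT-only peaks the same order held in each score band, with 21.3 against 6.45% in the lowest and 55.2 against 17.5% in the highest. CUL4A was present at 69.0% of WT-only peaks with CDT2 and at 24.0% of those without, and H3K4me3 at 15.5 and 6.74%. WT-only peaks with CDT2 had a median score of 641, and those without had 321.

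No region of any of the 6 lists was met by 2582 WT-only peaks (29.3%), against 6.42% of shared peaks, 28.0% of KO-only peaks and 75.1% of tiles. At the score mix of WT-only peaks, 18.3% of shared peaks met no list, so part of this gap went with the score. WT-only peaks stood 17.7 points above shared peaks (2.58 to 30.3) in the lowest score band. In the highest band they stood 1.65 points above (0.0709 to 3.25), and in band 4 the interval included 0. WT-only peaks that met no list had a median score of 280. The median rose with the number of lists met to 1186 for the 106 WT-only peaks that met all 6. Every one of the 64 possible combinations occurred. After none, the most frequent were a U2OS origin alone (1137 peaks), origins of both cell lines (744 peaks) and a CUL4A island with origins of both cell lines (700 peaks). The highest-scoring WT-only peak that met no list was chr9:44741875-44742461, with a score of 2733.

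Coverage by CDT2 and H3K9me3 was concentrated at the centres of WT-only peaks, as it was at shared and KO-only peaks, whereas CUL4A islands and origins were broad. CDT2 covered 15.3% of WT-only peak centres and 0.964% of positions 9 to 10 kb away, a ratio of 15.8. For H3K9me3 the values were 13.45 and 1.30%, a ratio of 10.3. For CUL4A the ratio was 2.77, for H3K4me3 2.85, for U2OS origins 2.08 and for RepID KO origins 1.91. At shared and KO-only peaks the ratios were 10.9 and 12.4 for CDT2 and 12.7 and 9.34 for H3K9me3. Among the 1562 WT-only peaks that met CDT2, the centre of the CDT2 peak lay a median of 80 bp from that of the SKP2 peak. Among the 1579 that met H3K9me3 the median was 105 bp. Overlap alone keeps the centres of such narrow regions close, so these distances are a description. CUL4A islands and origins were called on a grid of 200 bp and have median widths of 2000 bp or more, so their centres could not be placed as finely.

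**Figure D4:**
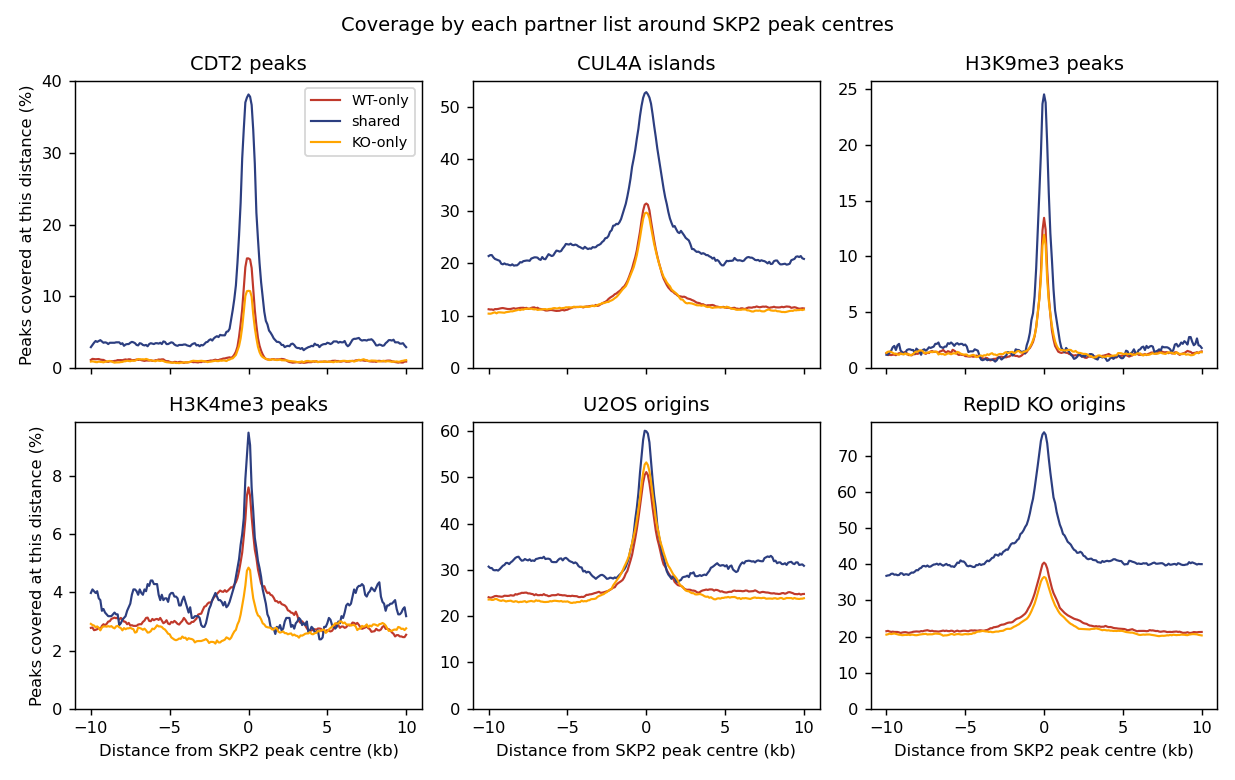
Percentage of WT-only, shared and KO-only SKP2 peaks covered by each of the 6 lists (vertical axis, scaled separately in each panel) at distances up to 10 kb from the peak centre. CDT2 and H3K9me3 form narrow maxima at the centre of WT-only peaks (15.3 and 13.45%), while CUL4A and origins decline more slowly.

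Over all scores, the H3K4me3 regions at WT-only peaks were wider and more enriched than those at shared peaks. Their median width was 2776 bp and their median fold enrichment 8.33, against 1109 bp and 4.18 at shared peaks, 2287 bp and 7.27 at KO-only peaks and 1902 bp and 7.10 in the whole list. WT-only peaks were thus closer to KO-only than to shared peaks in both measures. The H3K4me3 regions at WT-only peaks also differed with the SKP2 score, with a median width of 3558 bp and fold of 11.1 at WT-only peaks of the lowest band and 875 bp and 4.68 at those of the highest. Low-scoring WT-only peaks with H3K4me3 thus lay in wide, strong H3K4me3 regions and high-scoring ones in narrow, weaker regions. The comparison with regions at shared peaks was not made within score bands. The highest band held 1001 of the 1635 shared peaks but 1083 of the 8817 WT-only peaks, so score and group were mixed in it. For H3K9me3 regions the measures went in different directions from the lowest to the highest band, with a median fold of 3.94 and 2.89, a median width of 350 and 477 bp and a median −log10 q of 2.13 and 5.18.

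The CDT2 peaks met by WT-only peaks had higher scores than CDT2 peaks as a whole, with a median of 39.3 against 27.1. The median was 84.6 for CDT2 peaks met by shared peaks and 32.3 for those met by KO-only peaks, so it was above that of the whole list in all 3 sets and highest for shared peaks. For WT-only peaks it was 23.2 in the lowest band and 93.2 in the highest. Of all CDT2 peaks, 5.75% met a WT-only peak, 2.39% a shared peak and 5.01% a KO-only peak. Among the top 10% of CDT2 peaks by score, these shares were 18.1, 14.5 and 9.31%, so that the rise relative to all CDT2 peaks was steepest for shared peaks.

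The 10 WT-only peaks with the highest scores, from 4349 to 5724, lay on 8 chromosomes. Of these 10, 9 met CUL4A, 9 a RepID KO origin, 8 H3K9me3, 7 a U2OS origin, 6 CDT2 and 1 H3K4me3. Among all 1083 WT-only peaks of the highest band, the shares in this order were 56.4, 77.5, 38.0, 69.3, 54.2 and 15.05%. With only 10 peaks, these counts are a description. The highest-scoring of the 10 was chr11:1092728-1093531 (score 5724), which lay 119613 bp from the nearest RepID KO peak. It lay inside a CUL4A island of 8000 bp and a RepID KO origin of 19200 bp. It met an H3K9me3 peak of only 1.38-fold enrichment and no CDT2 peak.

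The next, chr1:569280-569686 (score 5293), lay in the CUL4A island and the U2OS origin with the highest scores of their lists (33968 and 68399), which span the same 6800 bp, and met no RepID KO origin. This stretch of chromosome 1 is known to hold a nuclear copy of mitochondrial DNA. The peak chr21:44919653-44919884 (score 5199, 232 bp) met all 6 lists, with 1.96-fold H3K9me3 and 1.93-fold H3K4me3.

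Other high-scoring WT-only peaks differed in what they met. The peak chr2:409719-410472 (score 4476) met only the origins of both cell lines and lay 255305 bp from a RepID KO peak. The peak chr1:249184765-249185197 (score 4355), near the end of chromosome 1, met the most enriched H3K9me3 region of the 10 (24.3-fold) and a CDT2 peak, but no U2OS origin. The peak chr3:72700554-72701091 (score 4017) met all 6 lists, with a CDT2 score of 1045 and H3K9me3 at 10.6-fold. The peak chr2:10573334-10573844 (score 4202) also met all 6 and had 4.56-fold H3K4me3.

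WT-only peaks were spread over all 22 chromosomes at 3.06 per Mb, and KO-only peaks at 3.60 per Mb. Chromosome 19 had the most WT-only peaks per Mb (5.40) and chromosome 13 the fewest (1.93). Chromosome 19 was also highest per Mb for KO-only peaks (7.41) and for all WT peaks (9.10). Lengths ran to the largest listed end, so stretches without any region were counted in them. Chromosome 19 also had the lowest share of WT peaks that were WT-only (59.3%), and chromosome 3 the highest (80.9%). WT-only peaks of chromosome 19 met CUL4A in 53.3% of cases and CDT2 in 27.6%, those of chromosome 13 in 18.9 and 8.56%.

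**Figure D5:**
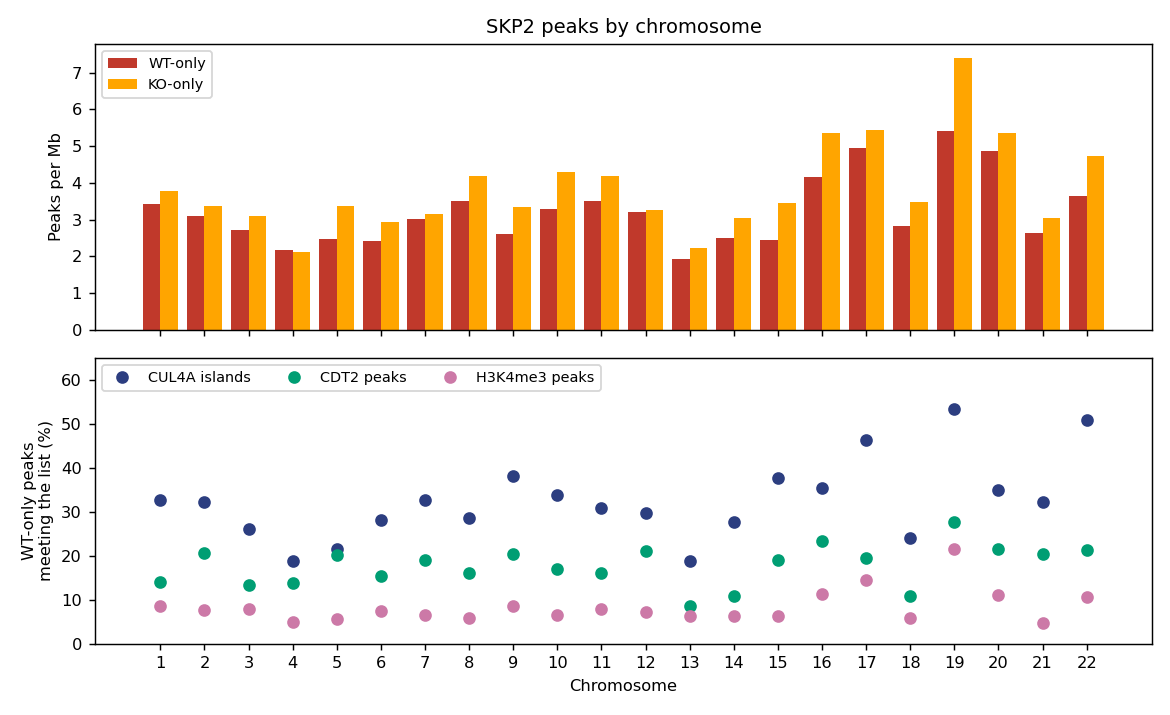
Upper panel, WT-only and KO-only SKP2 peaks per Mb of each chromosome. Lower panel, percentage of WT-only peaks on each chromosome that meet CUL4A islands, CDT2 peaks and H3K4me3 peaks, with chromosome 19 highest in WT-only peaks per Mb (5.40) and chromosome 13 lowest (1.93).

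In windows of 1 Mb, the median number of WT-only peaks was 3, and 283 of 2734 windows (10.4%) had none. The densest window, chr16:86000001-87000000, held 18 WT-only, 5 KO-only and 4 shared peaks. KO-only peaks were present in 89.8% of the windows with a WT-only peak. The share of all windows that held a KO-only peak was not computed. As KO-only peaks lay at 3.6 per Mb, the 89.8% is not read as co-occurrence. One window, chr2:21000001-22000000, chosen here after its values were seen, held 13 WT-only and 0 KO-only peaks. Within 2 Mb of a chromosome end lay 5.21% of WT-only peaks (4.76 to 5.69%), 5.26% of KO-only peaks, 14.3% of shared peaks and 2.95% of tiles. The nearest other WT-only peak lay a median of 82979 bp away, and 825 WT-only peaks (9.36%) had one within 10 kb. For KO-only peaks, which were more numerous, the values were 64191 bp and 12.7%.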

How the data were processed

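SKP2, CDT2, CUL4A, H3K4me3 and H3K9me3 ChIP-Seq and nascent strand sequencing were deposited as 1 list of regions per library, 8 lists from 11 samples. The 3 inputs have no list. None of the 11 samples is a nascent strand library of HCT116 WT cells. WT-only peaks could therefore not be compared with origins of the same cells. Per the labels the build was hg19, and MACS and SICER were used. The authors called SKP2 and CDT2 peaks with MACS2 (broad) against IgG (the labels list inputs), and CUL4A islands and origins with SICER (window 200 bp, gap 600 bp, false discovery rate 1e-05 and 0.01). The deposited score ranks regions within a list; in the SKP2 lists it is 10 times the ninth column, and the other value columns were not used because their meaning is not stated. The deposited histone lists have the MACS2 broad form, although the methods name SICER, and give fold enrichment (ratio) and −log10 q-values. Calling thresholds decide which regions are listed, and depth is unknown.

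Lists were intersected (at least 1 bp) with Python 3.11.15, NumPy 2.4.6, pandas 2.3.3 and SciPy 1.17.1, and drawn with matplotlib 3.10.9. The overlap code was tested on 2000 simulated queries, with 0 errors. Chromosome lengths were taken as the largest end in any list. Regions named were the 10 highest in score, the 3 highest with given overlaps or none, the 3 widest, nearest to the limit and farthest, and the densest window. The members and lists were chosen with earlier results of these data known. Alternatives were another overlap, distance and score minimum, and 200 bp around each centre. Gene names, a fixed list of 24 genes and sequence features were not used, since the reference tables are of another build.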

Additional observations from a re-analysis of the deposited data

How the results depend on the processing

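Over the alternatives tried, 31 values were classed as the same, 43 as moved, and 1 changed direction. Shares and differences were classed by their interval, whereas the counts of WT-only peaks, also among these values, have none. The change of direction was that of U2OS origins among WT peaks at or above the median score, where WT-only peaks stood 6.24 points above shared peaks. With that minimum, 3702 peaks were WT-only; shares meeting CDT2, CUL4A, H3K9me3, H3K4me3, U2OS origins and RepID KO origins were 33.7, 46.9, 28.1, 11.1, 68.3 and 59.0%, and the other differences from shared peaks were -10.45, -8.23, -7.58, -0.527 and -22.2 points (H3K4me3 -0.527, interval -2.53 to 1.35). With a limit of 50 kb, 5168 were WT-only, with shares in the same order of 14.7, 26.8, 16.0, 7.10, 47.2 and 33.6%, and differences of -25.3 (CDT2), -26.2 (CUL4A), -14.05 (U2OS origins) and -44.5 points (RepID KO origins). With members defined by no shared base with a RepID KO peak, 10294 were WT-only, a count classed as the same. CUL4A was then 33.6%, U2OS origins 53.8% and RepID KO origins 44.9% (difference -33.3). Requiring 50% of the SKP2 peak to be covered gave 15.3% for CDT2, 13.2% for H3K9me3 (difference -10.7), 7.58% for H3K4me3 (difference -1.66), 51.1% for U2OS origins and 40.5% for RepID KO origins. Allowing a gap of 1 kb gave 19.3, 33.0, 20.9, 9.27, 54.3 and 45.6%. Using 200 bp around each centre, chosen after seeing the data, gave 16.1% for CDT2 and 15.1% for H3K9me3 (difference -12.3). The cause of these changes was not tested. No paired analysis was possible because each condition has 1 library and no test was run; leaving out a replicate was not possible for the same reason. Unknown depth limits every statement that a peak was absent from a list.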

Other observations

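On chromosomes X and Y, which the rule leaves out, 292 SKP2 peaks of WT cells were listed, and 181 of them lay more than 10 kb from every RepID KO peak.

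The highest score band was divided by score into 4 parts of nearly equal size after its values were seen. WT-only peaks met U2OS origins more often than shared peaks by 11.5 (2.84 to 20.3), 9.21 (0.735 to 17.7), 13.8 (5.67 to 21.5) and 7.24 points (-1.30 to 15.5) from the lowest-scoring to the highest-scoring, and the last interval included 0. For CDT2 the differences were -4.81 (-13.9 to 4.29), 12.0 (3.15 to 20.5), 11.1 (2.58 to 19.4) and 6.52 points (-1.86 to 14.6). For RepID KO origins they were -7.33 (-15.0 to 1.0), -13.4 (-20.2 to -6.18), -2.76 (-8.91 to 3.15) and -2.82 points (-8.22 to 1.97). Only the interval around -13.4 points lay below 0.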
